A study of Mus musculus with 6 samples.

Results

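The comparison described here is that of small intestine from Fitm2 knockout (KO) mice with small intestine from control (L/L) mice taken on day 3 of tamoxifen treatment. It rested on 2 of the 6 arrays of the series, the KO and the L/L array of that day, chosen by their labels alone. Of 18193 genes with a probe set, 13042 were bright enough to be compared.

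The study measured gene expression on Affymetrix 3' arrays after tamoxifen-induced deletion of Fitm2 in adult mice. The L/L mice carried the alleles that the labels write as L/L, a notation they do not spell out, and no Cre. The KO mice carried ROSA26CreERT2 together with L/L, so Cre was driven from the ROSA26 locus, which is active in most cell types, and the deletion was not limited to the epithelium by design. Only KO mice carried Cre, so effects of active Cre, of the ROSA26 insertion and of Fitm2 loss cannot be told apart here. Both genotypes received tamoxifen, injected into the peritoneum at 100 µg per g on days 1, 2 and 3. Intestines were harvested on day 2, 3 or 5, and the labels leave unsaid whether the mice taken on day 3 had already received that day's dose. Mice taken on day 2 cannot have had the day 3 dose, so the number of doses also differed between harvest days. Age, sex and background strain were not given in them either. Each array held RNA pooled from several mice: 6 L/L and 6 KO mice on day 3, 6 L/L and 7 KO mice on day 2, and 8 L/L and 7 KO mice on day 5. With 1 pooled array per genotype and day, no difference on day 3 has a replicate or a test, and differences between the L/L arrays of different days are given beside it as background.

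Fitm2 encodes FIT2, a protein of the endoplasmic reticulum membrane that is needed for normal formation of lipid droplets, the stores of neutral lipid in the cytosol. In the small intestine, enterocytes rebuild dietary fat into triglyceride in the same membrane, package it in chylomicrons and hold part of it in droplets for a time. The epithelium renews itself within days from stem cells in the crypts, which also give rise to the secretory goblet, Paneth and enteroendocrine cells. Crypt cells respond readily to DNA damage and other stress through p53, a transcription factor that induces genes for cell cycle arrest, DNA repair and cell death. Interferons, the other signal that recurs below, act through STAT and IRF proteins on a short promoter element and induce antiviral genes.

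The day 3 arrays were alike overall. Their median intensities over all probe sets were 57.8 for L/L and 58.6 for KO, against 57.8 to 59.8 for all 6 arrays, and their log2 intensities correlated with r = 0.994 over 13042 genes. The enterocyte genes Fabp2, Vil1 and Alpi, which encode a fatty acid-binding protein, the microvillus protein villin and intestinal alkaline phosphatase, were among the bright signals, at 26792, 14602 and 13396 in L/L against 26843, 14167 and 13827 in KO. Over all genes, the log2 difference between KO and L/L had an SD of 0.205 on day 3, which lay between 0.141 for day 2 and 0.372 for day 5. Between L/L arrays it was 0.214 for day 3 against day 2, 0.227 for day 5 against day 3 and 0.261 for day 5 against day 2. Thus KO and L/L on day 3 were spread no wider than 2 control pools from different days, and those L/L values also hold any change with time or with the number of doses. The share of females and males in the pools may differ: on day 3 the log2 difference was -0.04 for the female-specific transcript Xist, and -0.25, -0.28 and -0.48 for the Y-linked genes Eif2s3y, Uty and Kdm5d. On days 2 and 5 Xist differed by -1.16 and -1.13, so the pools that day 3 is set beside were less balanced for Xist. On those days Eif2s3y had 338 and 466 in L/L against 497 and 635 in KO, and Kdm5d had 131 and 131 against 181 and 139. The part of this in the other differences was not tested. In whole tissue, fewer cells of a type and less RNA per cell cannot be told apart.

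The targeted gene was lower in KO on day 3. On day 3 the Fitm2 probe set read 223 for L/L and 127 for KO, a log2 difference of -0.82. On days 2 and 5 it read 193 and 211 for L/L, and 123 and 120 for KO. The 3 KO intensities lay within 120 to 127 and did not overlap the L/L range of 193 to 223. The labels do not say where the deleted part of the gene lies relative to the probe set, so these values do not measure how complete the deletion was. Fitm1, the related gene expressed mainly in muscle, had 162 in both genotypes on day 3. Gt(ROSA)26Sor, the noncoding transcript of the locus that holds the Cre insertion, read 572 for L/L and 168 for KO on day 3. On the other days it read 442 and 511 for L/L, and 204 and 183 for KO. Every KO array was below every L/L array for this transcript too, and its log2 difference on day 3 was -1.77. Esr1, which encodes estrogen receptor alpha, was the gene with the highest day 3 difference. Its intensity was 56.1, 56.1 and 39.8 in L/L on days 2, 3 and 5 and 367, 465 and 355 in KO, an 8.28-fold difference on day 3 (log2 3.05). CreERT2 contains a modified ligand-binding domain of the human estrogen receptor. Whether the brightest Esr1 probe set reads that part of the transgene was not tested; another Esr1 probe set above the intensity threshold differed by 0.22 on day 3.

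A difference of at least 2-fold between the day 3 arrays was found for 36 genes, which is 0.276% of those compared. Of these, 24 were higher in KO (0.184%) and 12 lower (0.092%). The same count was 16 on day 2 (0.123%) and 282 on day 5 (2.16%). Between L/L arrays alone it was 26 for day 3 against day 2 (0.199%), 21 for day 5 against day 3 (0.161%) and 54 for day 5 against day 2 (0.414%), so the day 3 count was within the range that control pools of different days gave. At 1.5-fold, 209 genes differed on day 3 (1.6%), 143 higher (1.1%) and 66 lower (0.506%), against 211 for L/L day 3 against day 2 (1.62%), 257 for L/L day 5 against day 3 (1.97%) and 381 for L/L day 5 against day 2 (2.92%). The first and the last of the 4 comparisons named at this fold share no array, whereas L/L day 3 serves in the first 3. Counts at either fold thus did not set day 3 apart from the controls, and the description below turns to which genes they were and where each stood on the other arrays.

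The position against all 3 L/L arrays separated the 36 genes further. They were picked by KO day 3 against L/L day 3, which by itself favours a place outside the L/L range. The shares of all genes given beside the counts are therefore no test of them. Of the 24 higher genes, 21 were above every L/L array on KO day 3 (28.0% of all genes were), and 11 were at least 2-fold above the highest L/L array (0.0843%). These 11 were Esr1, Psrc1, Phlda3, Ephx1, Glipr1, Ccng1, Ccp110, Ubd, 9230114K14Rik, Zmat3 and Ddias. Of the 12 lower genes, 11 were below every L/L array (21.9% of all genes were), and 6 were at least 2-fold below the lowest: Gsdmc2, Gt(ROSA)26Sor, Nox4, Pbld1, Svip and 9130208D14Rik (0.046%). For 12 of the 24 higher genes, L/L day 3 was itself the lowest of the 3 L/L arrays. For 15 of the 36 genes there were 19 further probe sets above the threshold; 18 had the same sign on day 3 and 8 were also at least 2-fold apart.

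**Figure D1:**
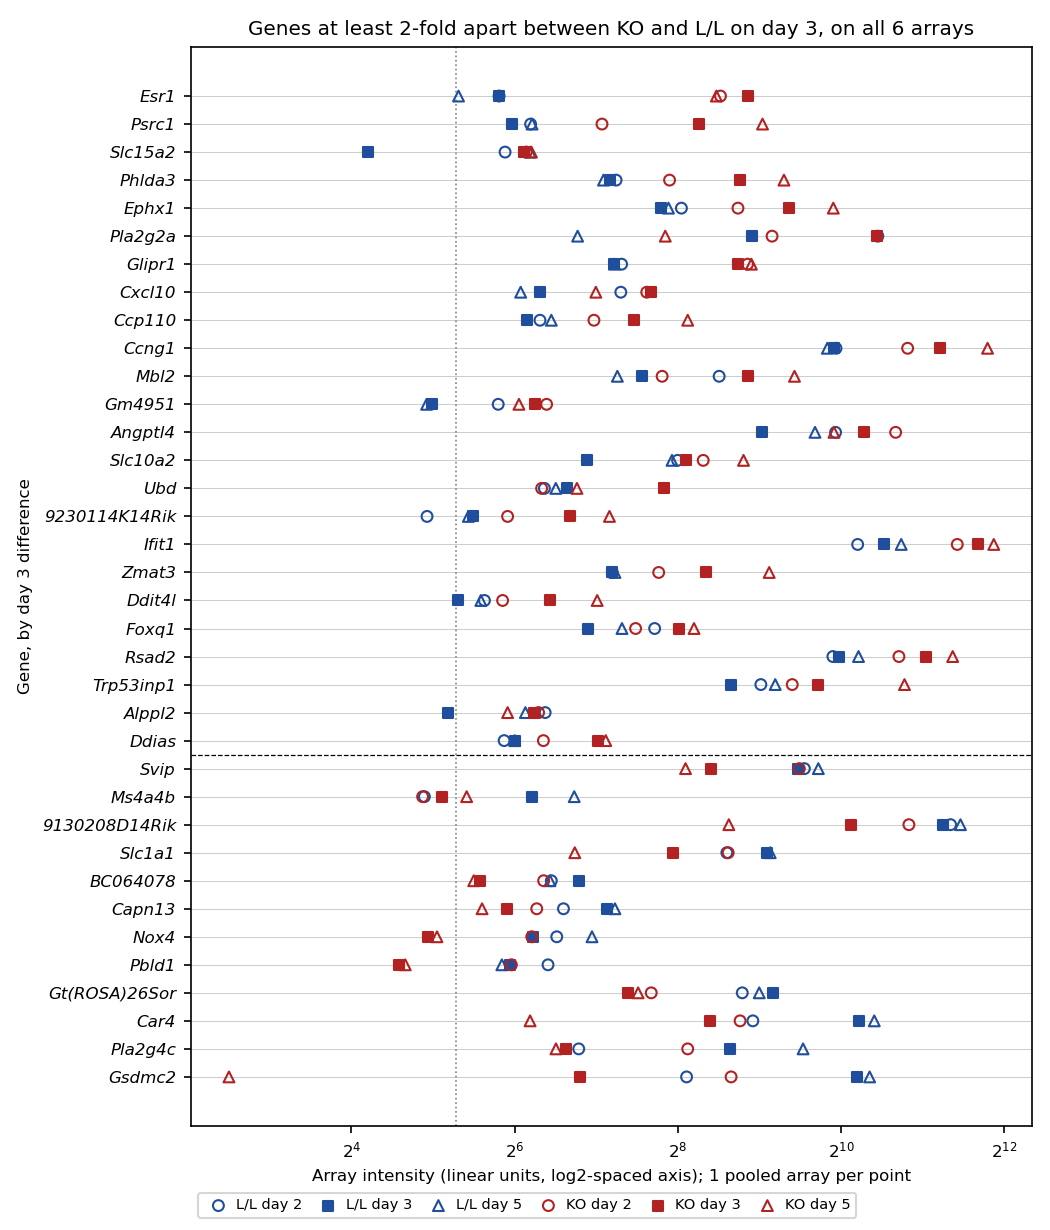
Intensity on each of the 6 arrays (x axis, log2-spaced) for the 36 genes that were 2-fold or more apart on day 3, ordered by their day 3 difference from Esr1 (log2 3.05) to Gsdmc2 (log2 -3.40). Blue points are L/L and red points KO, filled squares are day 3, open circles day 2 and open triangles day 5, each 1 pooled array; the dotted vertical line is the intensity threshold of 38.9 and the dashed line parts higher from lower genes. In 21 of 24 higher genes the red square lies right of all blue points, and in Slc15a2 and Alppl2 the blue square is far left of the other blue points.

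Targets of p53 made up 7 of the 24 higher genes. Of 31 measured p53 target genes, 26 were higher in KO on day 3 and 5 lower (47.5% of all genes were higher). Of the 31, 14 were at least 1.5-fold higher (1.1% of all genes were), 7 at least 2-fold (0.184%), and 23 were above every L/L array (28.0%). Their median log2 difference on day 3 was 0.39, against -0.01 over all genes, and lay between 0.19 on day 2 and 0.63 on day 5. The median of the same genes between L/L arrays was 0.00, -0.03 and -0.02 (day 3 against 2, 5 against 3, 5 against 2), so this list hardly moved between control pools. Psrc1, which encodes a microtubule-binding protein of the mitotic spindle, had 73.3, 62.7 and 74.2 in L/L on days 2, 3 and 5 and 134, 307 and 525 in KO. Its KO intensities were all above its L/L intensities and were higher on each later day, and the day 3 difference was 4.89-fold (log2 2.29); another Psrc1 probe set differed by 1.39.

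Several others of the list had the same arrangement of arrays, with flat L/L values and KO values that were highest on day 5. Phlda3, an inhibitor of Akt signalling, had 151, 144 and 136 in L/L compared with 239, 433 and 630 in KO (log2 1.59 on day 3). Ephx1, the microsomal epoxide hydrolase, had 264, 221 and 236 in L/L against 426, 657 and 957 in KO (log2 1.57). Ccng1, which encodes cyclin G1, had 980, 961 and 910 in L/L compared with 1800, 2376 and 3548 in KO (log2 1.31, with 1.18 and 1.49 for other probe sets). In each of these genes no KO array overlapped the L/L arrays. Zmat3, which encodes an RNA-binding zinc finger protein, had 147, 147 and 150 in L/L against 217, 324 and 556 in KO (log2 1.14). Ddit4l, an inhibitor of mTORC1, and Trp53inp1, a stress protein that promotes p53 activity, differed by 1.13 and 1.06; another Trp53inp1 probe set gave 0.33. Below 2-fold on day 3 were Aen (0.95), an apoptosis-enhancing nuclease, Gtse1 (0.95), Plk2 (0.94), a polo-like kinase, Ckap2 (0.75), Pmaip1 (0.67), which encodes the cell death protein Noxa, Polk (0.61), a translesion DNA polymerase, and Plk3 (0.60).

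The p53 targets with the best known roles in arrest and feedback differed less. Cdkn1a, which encodes the cell cycle inhibitor p21, had 2777 in L/L compared with 3650 in KO on day 3 (log2 0.39), above the 2687 and 2416 of the other L/L arrays. Mdm2, the ubiquitin ligase that degrades p53, had 649 and 831 (log2 0.36), and on day 2 it had 648 and 650. Bbc3, which encodes the cell death protein Puma, differed by 0.53. The death receptor Fas (-0.01), the ribonucleotide reductase subunit Rrm2b (-0.04), Perp (-0.06), the apoptosome protein Apaf1 (-0.12) and Cdkn1b (-0.20) were the 5 members not higher in KO. Outside the list, Ccp110, which caps centrioles, differed by 1.31 (71.4 in L/L against 177 in KO) and Ddias, named for suppressing apoptosis after DNA damage, by 1.02 (64.4 and 130).

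Interferon-induced antiviral genes were higher in KO on day 3 without exception in the list. All 35 measured genes were higher, with log2 differences from 0.13 to 1.15 and a median of 0.55. On KO day 3, 34 were above every L/L array (28.0% of all genes were), and Cmpk2 was the gene within the L/L range. Of the 35, 14 were at least 1.5-fold (1.1% of all genes were) and 2 at least 2-fold higher (0.184%). Unlike that of the p53 targets, the interferon median did not climb by much between days, at 0.53, 0.55 and 0.66 on days 2, 3 and 5. It also moved between control pools: it was 0.34 for L/L day 3 against day 2 and -0.08 for L/L day 5 against day 3, and L/L day 3 serves in both of these as well as in the day 3 comparison. Against the mean of L/L day 2 and day 5 the KO day 3 median was 0.81. Usp18, which removes the ubiquitin-like protein ISG15 and also limits interferon signalling, shows this. It had 589, 1134 and 1081 in L/L compared with 1770, 2179 and 2472 in KO. Its day 3 difference of 0.94 was 1.45 against L/L days 2 and 5. Even so, every KO array of Usp18 was above every L/L array.

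Ifit1, which binds viral RNA lacking the host cap structure, had 1178, 1476 and 1704 in L/L against 2743, 3276 and 3739 in KO, a day 3 difference of 2.22-fold (log2 1.15). Rsad2, which encodes the antiviral enzyme viperin, had 954, 1001 and 1186 in L/L compared with 1671, 2095 and 2638 in KO (log2 1.07), with 1.25 and 1.01 for other probe sets. Neither gene had a KO array within its L/L range, and both had their highest value on KO day 5. Ifit2 (0.90), Ifit3 (0.87), Xaf1 (0.85), the RNA sensor Dhx58 (0.64), Rtp4 (0.64) and Irf7 (0.63), a transcription factor of the interferon loop, followed. The receptor-proximal factors Stat2 and Irf9 differed by 0.58 and 0.46, and the sensors Ifih1 and Ddx58 by 0.36 and 0.28. Xaf1 had 711, 1811 and 2531 in KO on days 2, 3 and 5, with 580, 1006 and 1369 in L/L. Another Xaf1 probe set had 879, 813 and 796 in KO, with 576, 625 and 479 in L/L (0.38 on day 3), so its KO values were not higher on later days.

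Genes induced mainly by interferon-gamma differed less evenly. Of 17 measured genes of that list, mostly GTPases and chemokines but also others such as Irf1 and Socs1, 14 were higher on day 3. Their median was 0.15 (0.47 against L/L days 2 and 5), and 4 were at least 1.5-fold higher (1.1% of all genes were). Cxcl10, a chemokine that attracts activated T cells, led with 158, 79.7 and 67.4 in L/L against 197, 203 and 128 in KO (log2 1.35). Its KO day 3 value was above all L/L arrays, but L/L day 2 was nearly as high, and against L/L days 2 and 5 the difference was 0.98. The immunity-related GTPases Iigp1 (0.92, and 0.38 for another probe set), Irgm2 (0.67) and Igtp (0.67) and the guanylate-binding proteins Gbp7 (0.51) and Gbp6 (0.51) followed. Ubd, which encodes the ubiquitin-like modifier FAT10, was highest on KO day 3, at 228, against 80.5 and 109 on KO days 2 and 5 and 82.4 to 99.7 in L/L. All 5 MHC class II genes were higher (median 0.34, led by Cd74 at 0.43), and 7 of 11 genes of MHC class I antigen processing were (median 0.08, led by Tap1 at 0.30, or 0.09 for another probe set). Against L/L days 2 and 5 these medians were 0.57 and 0.35.

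The promoters of Cxcl10, Rsad2, Ifit3 and Ifit1 are shown because these genes were among the highest of the interferon lists and each held the core of the interferon-stimulated response element, which STAT and IRF proteins bind. Sequences and start sites are those of RefSeq on GRCm38.p6, given 5' to 3' on the strand of the gene over the 250 bases before the start site, with matches in capitals to GAAA, any 2 bases and GAAA, or on the other strand TTTC, any 2 bases and TTTC. The windows are chr5:92348890-92349139 (minus strand) for Cxcl10, chr12:26456453-26456702 (minus strand) for Rsad2, chr19:34583279-34583528 (plus strand) for Ifit3 and chr19:34640639-34640888 (plus strand) for Ifit1.
Cxcl10: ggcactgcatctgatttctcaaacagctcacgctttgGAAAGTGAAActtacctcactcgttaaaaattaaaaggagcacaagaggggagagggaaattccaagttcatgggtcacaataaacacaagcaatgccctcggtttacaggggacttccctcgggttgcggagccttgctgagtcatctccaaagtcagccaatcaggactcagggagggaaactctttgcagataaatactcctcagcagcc
Rsad2: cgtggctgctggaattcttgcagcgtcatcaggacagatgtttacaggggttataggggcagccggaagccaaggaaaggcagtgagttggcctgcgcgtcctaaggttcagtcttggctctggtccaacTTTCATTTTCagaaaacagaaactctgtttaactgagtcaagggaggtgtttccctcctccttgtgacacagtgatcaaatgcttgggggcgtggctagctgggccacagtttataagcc
Ifit3: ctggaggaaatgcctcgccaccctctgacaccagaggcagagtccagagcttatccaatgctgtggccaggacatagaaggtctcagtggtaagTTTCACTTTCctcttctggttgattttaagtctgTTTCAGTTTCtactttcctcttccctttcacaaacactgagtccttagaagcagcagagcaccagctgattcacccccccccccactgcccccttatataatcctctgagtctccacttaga
Ifit1: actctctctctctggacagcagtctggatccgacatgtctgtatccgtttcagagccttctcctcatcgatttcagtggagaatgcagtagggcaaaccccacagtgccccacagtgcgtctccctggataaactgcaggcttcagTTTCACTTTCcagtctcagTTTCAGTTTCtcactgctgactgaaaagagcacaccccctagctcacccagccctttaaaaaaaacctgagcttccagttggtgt
The first base of the match lay at -213 from the start site in Cxcl10, at -120 in Rsad2, at -156 and -122 in Ifit3 and at -104 and -85 in Ifit1.

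Over windows from 250 bases before to 50 after each RefSeq start site, the same letters were found on either strand in 1131 of 32851 windows (3.44%). Of the genes compared, 10474 had a window and 379 of them held a match in at least 1 window (3.62%). Of the 35 interferon genes 25 had a window, and 12 held a match (48%). Of the 24 genes at least 2-fold higher on day 3, 16 had a window and 4 held a match (25%): Cxcl10, Esr1, Ifit1 and Rsad2. A match describes these letters in these windows and does not show that a factor binds there.

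**Figure D2:**
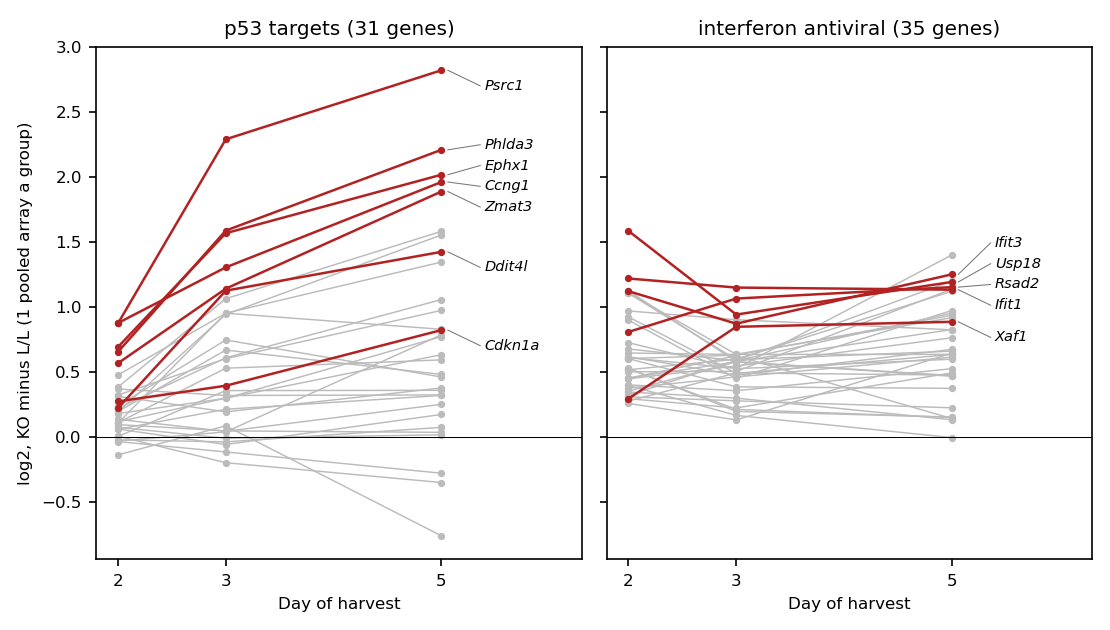
Log2 difference KO minus L/L (y axis) on days 2, 3 and 5 (x axis) for 31 p53 targets (left) and 35 interferon antiviral genes (right), 1 line per gene and 1 pooled array per genotype and day; red lines are the labelled genes. The p53 median was 0.19, 0.39 and 0.63 on the 3 days and that of the interferon genes 0.53, 0.55 and 0.66, and on day 3 all interferon genes lie above 0.

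Among the lower genes, Gsdmc2, Pla2g4c and Car4 had the largest differences. Gsdmc2, a member of the pore-forming gasdermin family, had 276, 1176 and 1303 in L/L on days 2, 3 and 5 and 402, 111 and 5.66 in KO. On day 3 the log2 difference was -3.40 (10.6-fold), after 0.55 on day 2 and before -7.85 on day 5, where the KO intensity was below the threshold. Car4, a carbonic anhydrase of the apical membrane, had 484, 1188 and 1356 in L/L compared with 434, 335 and 73.0 in KO (log2 -1.83 on day 3, and -1.94 for another probe set). Pla2g4c, a cytosolic phospholipase A2, had 110, 400 and 741 in L/L against 278, 99.2 and 90.9 in KO (log2 -2.01, and -0.39 for another probe set). In these 3 genes the L/L intensity on day 3 was at least 2-fold above that on day 2, while KO day 3 was below KO day 2. KO day 3 was below every L/L array in each of them, but below L/L day 2 by much less than below L/L day 3. Against the mean of L/L days 2 and 5 the differences were -2.43 for Gsdmc2, -1.27 for Car4 and -1.53 for Pla2g4c.

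Slc1a1, a transporter for glutamate and cysteine, had 388, 546 and 560 in L/L compared with 392, 247 and 107 in KO (log2 -1.15, with -0.86 and -0.58 for other probe sets). Svip, an inhibitor of protein degradation from the endoplasmic reticulum, had 749, 713 and 843 in L/L against 718, 340 and 273 in KO (log2 -1.07, with -0.27 for another probe set). For both genes KO equalled L/L within 0.1 on day 2, and KO days 3 and 5 were below all L/L arrays. 9130208D14Rik had 2420 in L/L compared with 1117 in KO (log2 -1.11), and the protease gene Capn13 differed by -1.22 on the log2 scale. Nox4, which encodes a hydrogen peroxide-producing NADPH oxidase, had 91.5, 75 and 123 in L/L against 74.0, 30.6 and 33.1 in KO (log2 -1.29, and -1.0 for another probe set). Pbld1 had 61.7 in L/L compared with 24 in KO (log2 -1.36). Both were below the intensity threshold in KO, and with such values raised to it their differences were -0.94 and -0.66. BC064078 (-1.21) and Ms4a4b (-1.11) completed the 12; Ms4a4b, a membrane protein of T cells, was below the threshold on 3 arrays and within the L/L range.

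Part of the 2-fold differences rested on a low L/L day 3 array. Slc15a2, a peptide transporter, had 59.0, 18.5 and 73.0 in L/L against 70.7, 69.3 and 73.8 in KO, so that 5 of 6 arrays lay between 59.0 and 73.8 and L/L day 3 was below the threshold. Its day 3 difference was 1.91, against 0.08 with L/L days 2 and 5 as the control, 0.83 with the dim value raised to the threshold and 0.14 for another probe set. Alppl2, an alkaline phosphatase, had 83.0, 36.3 and 70.2 in L/L compared with 75.6 in KO day 3 (log2 1.06, and -0.01 against L/L days 2 and 5; -0.42 for another probe set). Slc10a2, the bile acid transporter of the ileum, had 255, 118 and 243 in L/L against 274 in KO day 3 (log2 1.21, and 0.14). Angptl4, an inhibitor of lipoprotein lipase, had 976, 522 and 820 in L/L compared with 1240 in KO day 3 (log2 1.25, and 0.47). The transcription factor gene Foxq1 differed by 1.11, and by 0.49 against L/L days 2 and 5.

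Mbl2, a lectin that binds microbial sugars, had 363, 188 and 153 in L/L against 224, 465 and 689 in KO, with KO lower on day 2 (-0.70) and higher on day 3 (1.30). Pla2g2a, a secreted phospholipase of Paneth cells, had 1397, 478 and 109 in L/L compared with 569, 1382 and 230 in KO; KO day 3 was below L/L day 2, and the 6 arrays overlapped between genotypes. Taking the mean of L/L days 2 and 5 as the control, 13 of the 24 higher and 9 of the 12 lower genes were still at least 2-fold apart. That control gave 49 genes in all, or 0.376% of all compared, of which 22 were among the 36.

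**Figure D3:**
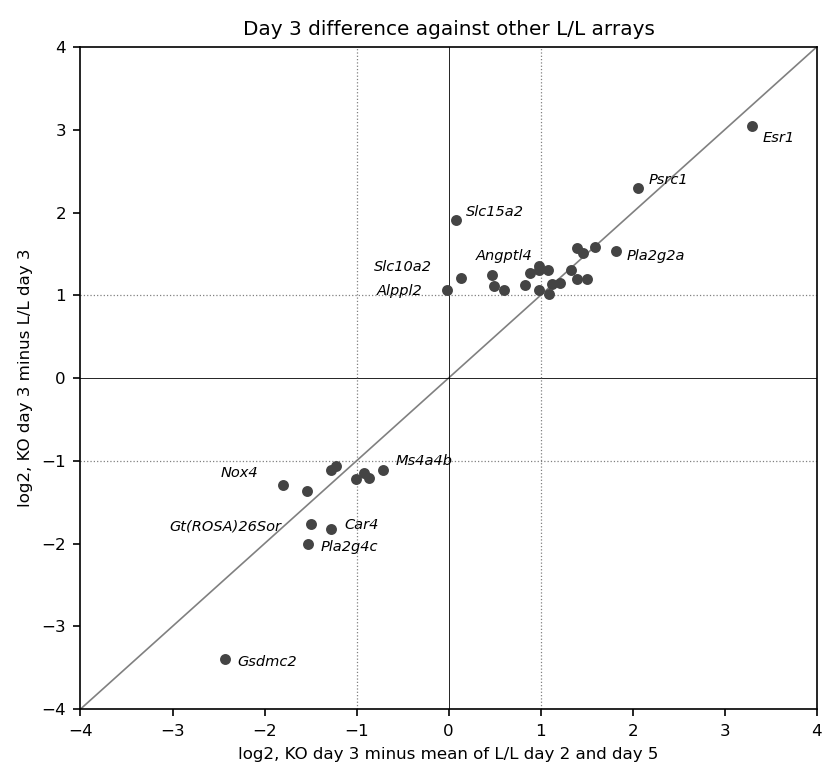
Log2 difference of KO day 3 from L/L day 3 (y axis) against its difference from the mean of L/L day 2 and day 5 (x axis) for the 36 genes at least 2-fold apart on day 3; each point is 1 gene, KO day 3 enters both axes, the diagonal marks equality and dotted lines mark 2-fold. Slc15a2, Alppl2 and Slc10a2 lie near 0 on the x axis (0.08, -0.01 and 0.14), while Esr1, Psrc1 and Gsdmc2 are past 2-fold on both.

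Most genes that stood apart by day 5 had a smaller day 3 difference of the same sign. The day 3 and day 5 comparisons share no array, but the genes were picked for a large day 5 difference, which favours small shares of it on day 3. Of 167 genes at least 2-fold higher in KO on day 5 (1.28% of all genes), 155 were higher on day 3 (92.8%, against 47.5% of all genes). Of the 167, 53 were at least 1.5-fold higher (1.1% of all genes were) and 17 at least 2-fold (0.184%). From day 2 through day 3 to day 5 their median log2 difference was 0.14, 0.40 and 1.23, and the day 3 difference was a median 29.4% of that on day 5. Of 115 genes at least 2-fold lower on day 5 (0.882%), 107 were lower on day 3 (93.0%, against 52.3% of all genes), with medians of -0.12, -0.37 and -1.22 and a median share of 30.1%. Of the 115, 29 were at least 1.5-fold lower (0.506% of all genes were) and 11 at least 2-fold (0.092%). The day 3 difference lay between those of days 2 and 5 for 136 of the 167 and 98 of the 115 (43.6% of all genes). On KO day 3, 137 of the 167 were above every L/L array (28.0% of all genes were) and 87 of the 115 below (21.9%). The picking also favoured the counts between days and outside the L/L range. L/L day 5 is among the L/L arrays, and a day 3 difference is unlikely to pass a day 5 difference picked as large. The shares of all genes are therefore no test of these counts. Across 13042 genes, which are not independent, the difference on day 3 correlated with that on day 5 at r = 0.587 (rho = 0.515) and with that on day 2 at r = 0.288 (rho = 0.204).

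Read the other way, 17 of the 24 genes higher on day 3 and 11 of the 12 lower were at least 2-fold apart in the same direction on day 5, and 3 and 1 were on day 2. The sign was the same on day 5 for 23 of 24 and 12 of 12. On day 2 it was the same for 19 of 24 and 9 of 12. The day 3 difference lay between those of days 2 and 5 in 14 of the 24 and 9 of the 12, and in 5688 of all genes (43.6%). Of 12 genes at least 2-fold higher on day 2 (0.092%), 9 were higher on day 3, and of 4 lower (0.0307%), 2 were lower.

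**Figure D4:**
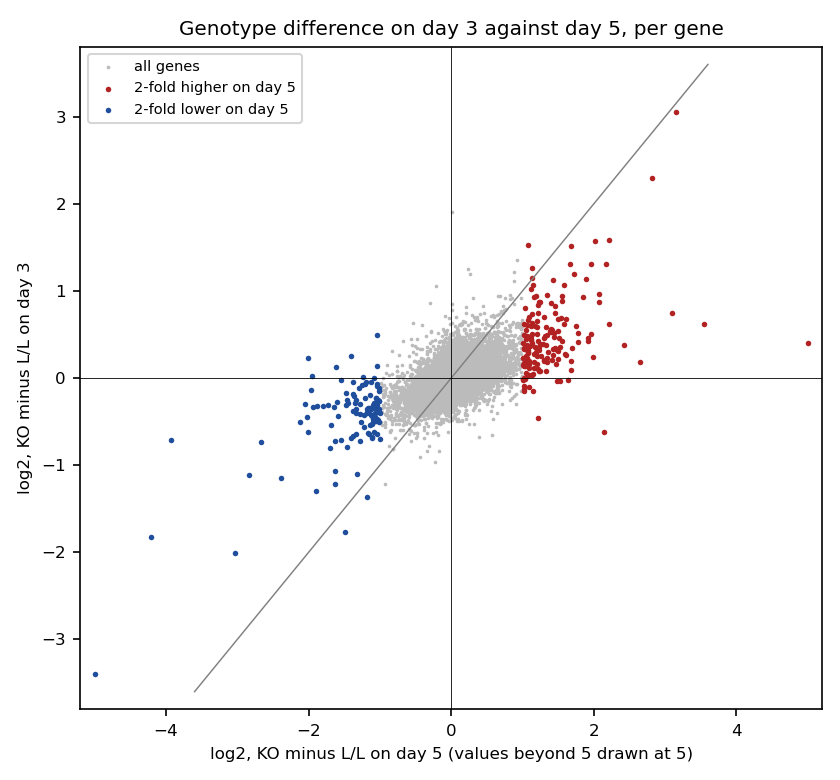
Log2 difference KO minus L/L on day 3 (y axis) against day 5 (x axis) for 13042 genes, 1 point per gene; the comparisons share no array. Genes at least 2-fold apart on day 5 lie mostly on the same side of 0 on day 3, with 155 of 167 higher and 107 of 115 lower.

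The distance of day 3 from the other days varied between genes. Measured as the day 3 difference minus the mean of those on days 2 and 5, the mucosal defence genes Dmbt1 (1.42), Reg1 (1.42) and Reg3g (1.39) were among the highest, and for Reg1 and Reg3g the day 3 difference lay outside those of days 2 and 5. Reg3g, a lectin that kills Gram-positive bacteria, had 13432, 11548 and 18000 in L/L against 7771, 11717 and 4671 in KO, so its genotypes matched on day 3 (0.02) and were apart on days 2 (-0.79) and 5 (-1.95). Reg1 had 5528 in L/L compared with 6491 in KO on day 3 (0.23), and differed by -0.37 on day 2 and by -2.01 on day 5. Dmbt1, a scavenger glycoprotein, had 6767 and 4131 on day 3 (-0.71), which lay between -0.33 on day 2 and -3.93 on day 5. At the other end were genes whose day 3 difference lay between those of days 2 and 5 but far nearer to day 2: Il1rn, the interleukin-1 receptor antagonist (0.62 on day 3 and 3.55 on day 5, below the threshold on 4 arrays), the keratin gene Krt23 (0.19 and 2.65) and Ly6d (0.38 and 2.42). The defensin gene Defa31 had 10152, 6213 and 35.3 in L/L against 2772, 8196 and 10116 in KO; its differences by day were -1.87, 0.40 and 8.16, and its L/L day 5 value was below the threshold.

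The steepest steps from day 2 to day 3, as differences of differences, were those of Pla2g2a (2.83), Defa31 (2.27), Mbl2 (2.00), Slc15a2 (1.65) and Psrc1 (1.42) upward, and of Gsdmc2 (-3.95), Pla2g4c (-3.35), Car4 (-1.67), Rgs13 (-1.42) and Scd2 (-1.32) downward. Of these 10, Psrc1 was the gene whose 3 L/L arrays lay closest together, within 62.7 to 74.2. Scd2, a stearoyl-CoA desaturase, had 584, 1475 and 1949 in L/L compared with 780, 787 and 1440 in KO, so its L/L arrays spanned more than its day 3 difference of -0.91; other probe sets differed by -0.41 and -0.35. Rgs13 had 25.5, 108 and 65.2 in L/L, the first below the threshold.

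Among the epithelial lineages, the secretory genes were higher in KO on day 3. All 13 Paneth cell genes were higher, with a median of 0.40 between 0.14 on day 2 and 0.74 on day 5, and 10 were above every L/L array (28.0% of all genes were). Itln1, which encodes the lectin intelectin-1, had 3042, 2639 and 2567 in L/L against 3983, 5023 and 5729 in KO (log2 0.93), with no overlap between genotypes. Nupr1, a stress-induced chromatin protein, differed by 0.78 (0.37 for another probe set), Mmp7, the protease that activates defensins, by 0.50, and Lyz1, the Paneth cell lysozyme, by 0.28 (16146 and 19659). Of 21 goblet cell genes 20 were higher (47.5% of all genes were). Their median of 0.18 was higher than on day 2 (0.03) and day 5 (0.09). The secretory lineage factors Atoh1 (0.55) and Spdef (0.37), the mucin-folding enzyme Agr2 (0.55, and 0.19 for another probe set) and the mucin Muc2 (0.28) were each above all L/L arrays. Spink4, which is on the Paneth cell list and is also made by goblet cells, had 5184 and 7500 (log2 0.53).

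Of 25 enteroendocrine genes 23 were higher, with a median of 0.21 between 0.02 on day 2 and 0.41 on day 5, and 13 were above all L/L arrays (28.0% of all genes were). The hormones ghrelin (Ghrl, 0.47), proglucagon (Gcg, 0.43) and somatostatin (Sst, 0.41) and the granin Chgb (0.35) led. For this list the median between L/L arrays was -0.19 for day 3 against day 2 and -0.11 for day 5 against day 3. L/L was thus lower on each later day. Against L/L days 2 and 5 the KO day 3 median was 0.16. Of 14 tuft cell genes 3 were higher (median -0.06), a direction that turned to 0.20 against L/L days 2 and 5. Stem cell and Wnt target genes had a median of 0.13 with 17 of 22 higher, led by Msi1 (0.72, and -0.07 for another probe set), Hopx (0.45) and Cd44 (0.42), while the crypt base markers Lgr5 and Olfm4 had -0.05 and -0.14. Regenerating epithelium genes had a median of 0.07 on day 3, against 0.73 on day 5, with Plaur (0.61), Ccn2 (0.52) and Krt18 (0.50) highest. Brush border genes had a median of 0.00.

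Marker genes of other cell types differed beside these. For scale, 47.5% of all genes were higher on day 3. KO day 3 was above every L/L array in 78.3% of the myeloid genes and 72.7% of the endothelial and lymphatic genes. For fibroblast and matrix genes this was 36.7%, nearer to the 28.0% of all genes. Of 23 myeloid genes 20 were higher (median 0.23), led by the complement genes C1qa (0.67, 398 in L/L compared with 632 in KO) and C1qc (0.41), the lysozyme Lyz2 (0.56) and Aif1 (0.49). Of 22 endothelial and lymphatic genes 20 were higher (median 0.20), led by Lyve1 (0.50), Emcn (0.49) and Cdh5 (0.45), and of 30 fibroblast and matrix genes 23 (median 0.16), led by Loxl1 (0.50, and -0.10 for another probe set) and Mmp2 (0.45). Against L/L days 2 and 5 the fibroblast median was 0.054. The summed intensity of the 23 myeloid genes was 8559 to 9792 in L/L and 11584 in KO day 3, that of the endothelial genes 3825 to 4397 and 4638, and that of the fibroblast genes 22872 to 25379 and 24984. The first 2 sums were thus above all L/L arrays and the third was within their range. The dimmest member of the 3 lists read 36.9 on day 3, below the threshold of 38.9. Smooth muscle genes had a median of -0.06 and a wide spread between control pools (0.25 for L/L day 5 against day 3). All 9 pancreatic acinar genes were higher (median 0.36, led by Ctrb1 at 0.85, 59.0 and 106), with a summed intensity of 6692 to 13078 in L/L and 8078 in KO day 3. Reg1, which is also on the mucosal defence list, made up most of that sum on both day 3 arrays. The sum therefore says little about the other acinar genes. The median of the list moved by -0.37 between L/L day 2 and day 3, and against L/L days 2 and 5 it was 0.15. T and NK cell genes had a median of 0.10, B and plasma cell genes -0.09, adipocyte genes 0.05, enteric neuron and glia genes 0.03, and the 4 mast cell and eosinophil, 5 hepatocyte and 2 erythroid genes 0.05, 0.03 and -0.10. The part of differing cell or tissue shares in the other results was not tested.

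**Figure D5:**
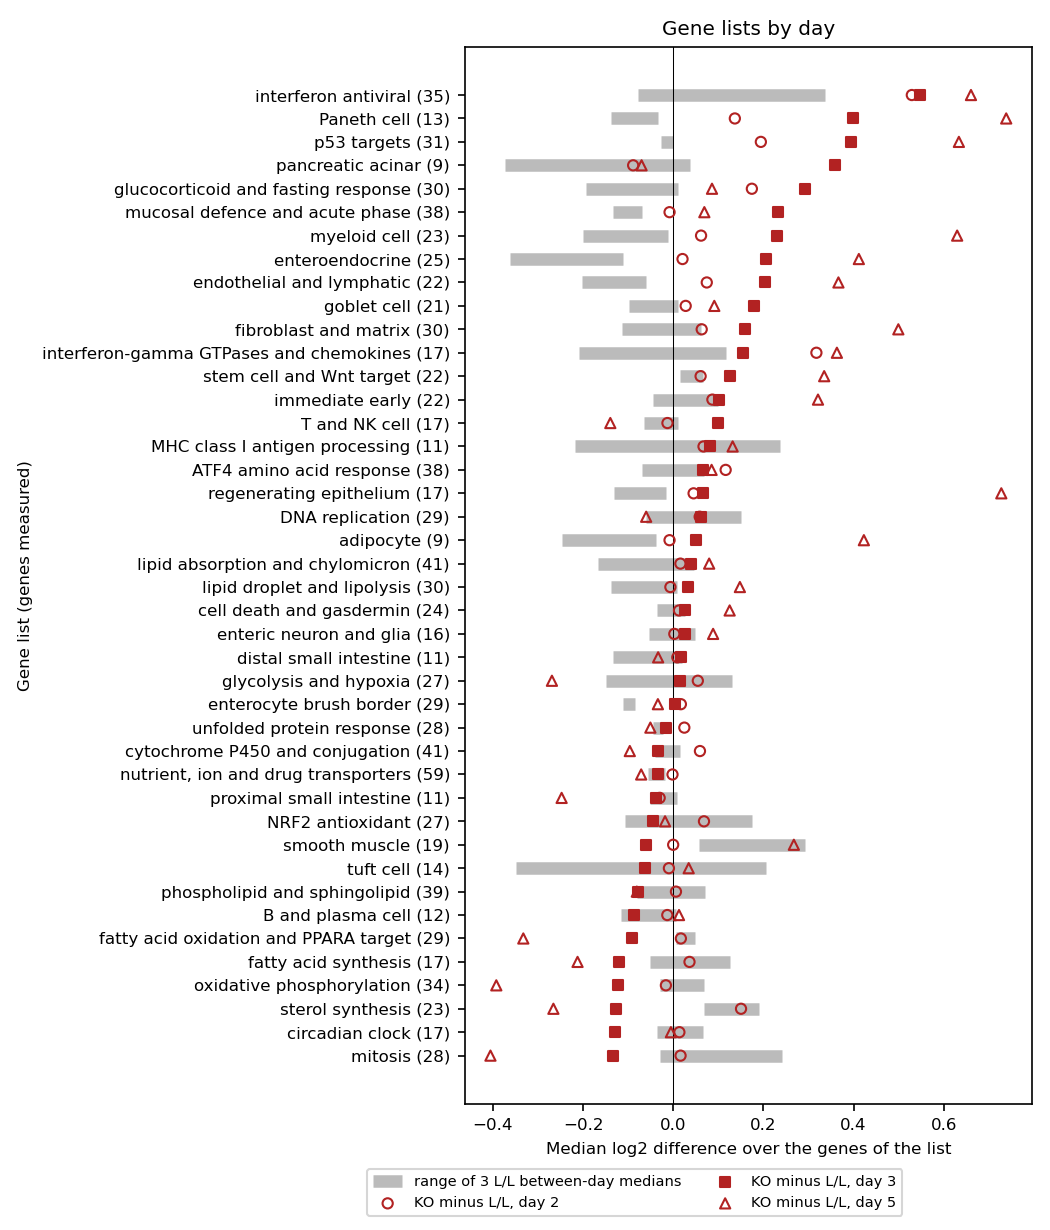
Median log2 difference of the genes of each list (x axis), for KO minus L/L on day 2 (open circles), day 3 (filled squares) and day 5 (open triangles); grey bars span the list's medians in the 3 comparisons between L/L days, and numbers in brackets are genes measured, with 1 pooled array per genotype and day. On day 3 interferon antiviral genes (0.55), Paneth cell genes (0.40) and p53 targets (0.39) have the highest medians of the lists drawn, and the median of all genes is -0.01.

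Genes of lipid handling, the process in which Fitm2 acts, mostly differed by small amounts on day 3. Of 41 lipid absorption and chylomicron genes 25 were higher, with a median of 0.04, or 0.14 against L/L days 2 and 5. On KO day 3, 20 of the 41 were above every L/L array (28.0% of all genes were) and 2 below (21.9%). Dgat1, Dgat2 and Mogat2, which make triglyceride, had 7486, 6254 and 4115 in L/L against 7053, 7067 and 3781 in KO (log2 -0.09, 0.18 and -0.12). Mttp and Apob, which assemble chylomicrons, both differed by 0.18 and were above all L/L arrays, and the fatty acid transporter Cd36 differed by -0.21. Plpp3, a lipid phosphate phosphatase, was the member furthest apart, at 724 and 1103 (log2 0.61), yet its L/L arrays ranged from 724 to 1024. Lipid droplet and lipolysis genes had a median of 0.03 over 30 genes, with 2 at least 1.5-fold lower (0.506% of all genes were): Fitm2 itself and Hsd17b13, a droplet-associated retinol dehydrogenase (1421, 693 and 697 in L/L compared with 1097, 419 and 287 in KO, log2 -0.73, and -0.04 for another probe set). The droplet coat proteins Plin2 and Plin3 differed by -0.07 and 0.15, the droplet-forming protein seipin (Bscl2) by 0.11 and the droplet protein Cidec by 0.22.

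Phospholipid and sphingolipid genes had a median of -0.08, with 27 of 39 lower. The ceramidase Acer1 (344, 340 and 245 in L/L against 284, 222 and 116 in KO, log2 -0.62) was the member furthest apart, followed by the ceramide synthase Cers6 (-0.48) and the choline phosphotransferase Chpt1 (-0.40). Ugcg, which makes glucosylceramide, differed by 0.32, and by -0.19, 0.24 and 0.04 for its other probe sets. Against L/L days 2 and 5 the list median was 0.007, so its direction depended on the control. Fatty acid synthesis genes were lower in 14 of 17 (median -0.12), with Scd2, the malic enzyme Me1 (-0.81, with 423 to 1231 in L/L), Fads2 (-0.47) and Elovl6 (-0.40) in front, and Fasn, the fatty acid synthase, at 0.03. Sterol synthesis genes were lower in 20 of 23 (median -0.13, against 0.15 on day 2 and -0.27 on day 5). Of these, Insig1, which keeps the sterol regulator SREBP in the endoplasmic reticulum, had 925, 990 and 874 in L/L compared with 741 in KO day 3 (log2 -0.42), and 5 of the 23 were below every L/L array (21.7%, close to the 21.9% of all genes). The sterol median between L/L day 2 and day 3 was 0.18, larger than the day 3 difference between the genotypes.

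Oxidative phosphorylation genes were lower in 33 of 34, by small amounts. Their median was -0.12, between -0.02 on day 2 and -0.39 on day 5, and 20 were below every L/L array (21.9% of all genes were). Cox15, which makes the heme of cytochrome oxidase, had 241 in L/L against 154 in KO (log2 -0.65), but its other probe sets gave -0.14, -0.02 and 0.24; Cox10, Sdhd, Atp5g1, Ndufs1 and Uqcrfs1 lay between -0.34 and -0.23. Their median between L/L days 2 and 3 was 0.07. Fatty acid oxidation and PPARA target genes were lower in 21 of 29 (median -0.09), with Cpt1a, the carnitine transferase at the entry to mitochondria, at -0.34, and Angptl4 and Pdk4 (0.61) on the other side. Mitosis genes were lower in 20 of 28 (median -0.13, against 0.02 on day 2 and -0.41 on day 5), led by Mki67 (-0.54), Ccnb2 (-0.45) and Cenpf (-0.41). L/L day 2 was low for this list: by median, L/L day 3 was 0.24 and L/L day 5 was 0.22 above it. Against L/L days 2 and 5 the KO day 3 median was -0.02. DNA replication genes had a median of 0.06, with Tk1 at -0.51 and Rrm2 at 0.30.

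Among stress and regulatory genes, 25 of 30 glucocorticoid and fasting response genes were higher on day 3 (47.5% of all genes were). Their median was 0.29, against 0.17 and 0.09 on days 2 and 5. Ddit4, an inhibitor of mTORC1 induced by glucocorticoids and by other stress, had 582, 486 and 524 in L/L compared with 736, 935 and 845 in KO (log2 0.94), and the transcription factor Cebpd had 384 and 680 on day 3 (log2 0.83, and 0.11 for another probe set). Both were above all L/L arrays. Against L/L days 2 and 5 the list median was 0.13. Immediate early genes had a median of 0.10, with Egr1 at 410, 530 and 422 in L/L against 770, 1034 and 1767 in KO (log2 0.97) and Nr4a1 at 0.79. ATF4 target genes had a median of 0.07, led after Ddit4 by Nupr1, Vldlr (0.75, and 0.29 and 0.07 for other probe sets), the serine synthesis enzymes Phgdh (0.71) and Psat1 (0.52), and the amino acid transporter Slc7a5 (0.45). Other Phgdh probe sets differed by 1.13, 0.73 and 0.13. Genes of the unfolded protein response had a median of -0.02, with the chaperone Hspa5 at 0.06 and Ddit3, which encodes CHOP, at 0.09.

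Of 38 mucosal defence and acute phase genes 22 were higher and 16 lower, with a median of 0.23 that was 0.029 against L/L days 2 and 5; the chemokine Ccl2 (0.92, with 1 L/L array below the threshold), the acute phase protein Saa3 (0.74) and Reg4 (0.69) lay on one side with Mbl2, and Dmbt1 on the other with Nox4. Xenobiotic genes had a median of -0.03 and no common direction: the aldo-keto reductase Akr1b8 had 167 and 307 (log2 0.88), the glucuronosyltransferases Ugt2b5 and Ugt2b36 had -0.74 and -0.62, and Akr1c14 had -0.51. All 4 were outside the L/L range on KO day 3 and further apart on day 5. NRF2 target genes had a median of -0.05 that turned to 0.097 against L/L days 2 and 5, glycolysis and hypoxia genes 0.02 with Hk2 (0.63) and Ankrd37 (0.63) in front, transporters -0.03, circadian clock genes -0.13, cell death genes 0.03, proximal small intestine genes -0.04 with the esterase Bche at -0.71, and distal small intestine genes 0.02.

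Over the 3 days, each taken as 1 pair of pools, limma called 3 genes after Benjamini-Hochberg adjustment over 13042 genes (0.023%), and all were among the 36 of day 3. Esr1 rose (mean log2 difference 2.97, adjusted p = 0.0113), as did Glipr1 (1.58, adjusted p = 0.0148) and Ifit1 (1.17, adjusted p = 0.0285). Each was higher on 3 of 3 days. Glipr1, which encodes a secreted cysteine-rich protein family member, had 159, 148 and 149 in L/L compared with 462, 425 and 478 in KO (2.86-fold on day 3). At an unadjusted p under 0.05 there were 1603 genes (12.3%). Without day 3 limma called 0 genes, with 606 at an unadjusted p under 0.05, and without day 2 it called Esr1 alone. All 3 KO arrays were above all 3 L/L arrays in 976 genes (7.48%) and below in 738 (5.66%). Psrc1, Phlda3, Ephx1 and Ccng1 are examples of such genes that did not pass the test, with adjusted p between 0.341 and 0.378 for the first 3, and their differences were unequal between the days.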

How the data were processed

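For every probe set and each of 6 arrays the deposited table gave 1 processed intensity. Per the submitters' processing notes the tools were Partek and RMA, with no version or role given; the array medians of the deposited intensities were nearly equal (57.8 to 59.8), and values from 3.82 to 31146 put them on a linear scale. How the arrays were normalized, and hence whether a global shift between genotypes was removed, is not stated. Per the labels, biotin-labelled cRNA was made from total RNA of whole, flushed small intestine.

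Log2 was taken without a pseudocount and without further normalization. Of 45101 probe sets 64 were controls, 34945 had 1 gene in the platform annotation, 932 had several and were left out, and 9160 were not listed and stay unnamed; symbols of 34741 were updated through gene IDs to GRCm38.p6. Each gene was represented by its brightest probe set (highest mean of the 6 log2 values) and kept if that mean passed the 40th percentile over non-control probe sets, which is 5.28 or an intensity of 38.9. A gene is called above or below all L/L arrays by its intensity on KO day 3.

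Differences are log2 KO minus log2 L/L, and a day has no test. A genotype term over 3 days was fitted in limma 3.58.1 (R 4.3.3; day as a factor, two-sided, Benjamini-Hochberg at 0.05, 2 residual degrees of freedom and a prior of 3.03); its p-values measure only the spread between days. On simulated data with 200 of 13042 genes changed by the same amount on all 3 days, that test recovered 22.4%, 89.6% and 98.5% of log2 changes of 0.5, 1 and 2. Differences that change between days, such as those of Psrc1 and Phlda3, were not simulated, and these shares do not hold for them. Among its 146 calls 6 were false, and it called 0 genes when none was changed. The array number limits the precision of all values.

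The comparison and the 47 gene lists were chosen with earlier results of these data known. Genes were named by rule: a few fixed genes (Fitm2, Fitm1, Esr1, Gt(ROSA)26Sor and sex-linked genes), all genes at 2-fold on day 3, the 10 highest and lowest for the day 3 difference against the mean of days 2 and 5 and against day 2, and in each list at most 6 members by size of the day 3 difference plus members with a defining role. Antigen receptor segments and unnamed models were left out, except 9230114K14Rik, 9130208D14Rik and BC064078, named to complete counts, and Gm4951, which is plotted. Alternatives were the probe set rule, the filter, an offset of 32, centring, loess, the L/L control, the fold and leaving out each day; raising dim intensities to the threshold was added after the values were seen.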

Additional observations from a re-analysis of the deposited data

Results flagged for a closer look

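Of the genes at least 2-fold apart on day 3, 2 had been at least 2-fold apart in the opposite direction on day 2. Pla2g2a differed by 1.53 on day 3 and by -1.30 on day 2, and Pla2g4c by -2.01 on day 3 and by 1.33 on day 2. With 1 pooled array per genotype and day, the difference between the days was not tested. For both genes the L/L arrays differed more between days 2 and 5 than the genotypes did on day 2: Pla2g2a had 1397 in L/L on day 2 and 109 on day 5, and Pla2g4c had 110 and 741.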

How the results depend on the processing

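The count of 36 genes at 2-fold was between 24 and 54 under other probe set rules, filters, an offset, centring, loess and L/L controls, and 209 at 1.5-fold. Of 24 higher genes there were 41 without a filter, 38 with the mean of L/L days 2 and 5 as the control and 143 at 1.5-fold; of 12 lower, 7 with the 60th percentile filter, 7 with the offset of 32 and 66 at 1.5-fold. The share of higher genes was 66.7%, and 77.6% with L/L days 2 and 5. With L/L days 2 and 5 as the control, medians were 0.81 for interferon, 0.45 for p53, 0.14 for lipid absorption, -0.068 for oxidative phosphorylation, 0.13 for glucocorticoid, 0.37 for myeloid and 0.15 for acinar genes. With all 3 L/L arrays they were 0.73 for interferon, 0.46 for p53 and 0.20 for glucocorticoid genes. The p53 median was 0.49 with the mean of all probe sets, 0.53 without probe sets that can bind several transcripts, 0.38 with the stricter filter, 0.38 with median centring and 0.43 with loess; without multi-transcript probe sets the goblet median was 0.25. Of the gene values Alppl2 reversed, to -0.012 with L/L days 2 and 5, and that control also turned the small medians of tuft cell (0.20), phospholipid and sphingolipid (0.007), NRF2 (0.097), unfolded protein response (0.042), cytochrome P450 (0.028) and enteric neuron (-0.024) genes. It moved other small medians by over 1.5 times, such as regenerating epithelium (0.22), DNA replication (0.17), glycolysis (0.15), immediate early (0.20), smooth muscle (-0.17), sterol (-0.047) and clock (-0.028) genes. Of 406 gene values 347 moved by less than the spread, as did 374 of 455 list medians. Limma called 3 genes, 0 to 2 when a day was left out, and 1 (Ifit1) with the mean of all probe sets. Apart from settings with fewer samples or genes, the cause of these shifts was not tested. The limma fit pairs the pools by day; a replicate block beyond that could not be added because the labels carry no replicate numbers.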

Other observations

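Probe sets without a listed gene were not part of the comparisons above. Of 3977 such probe sets above the intensity threshold, 21 were 2-fold or more apart on day 3 (13 higher in KO and 8 lower, 0.528%), against 38 for the L/L arrays of days 5 and 2.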
